A study of Mus musculus with 16 samples.

Results

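The comparison set cultured skin fibroblasts of NM1 knockout (KO) mice against those of wild-type (WT) mice. Its members were the 4 arrays titled as KO or WT cells, of 16 in the series, and they were chosen by title and tissue label alone. The KO arrays carried mouse numbers 1584 and 1550 and the WT arrays 1571 and 1623. The other 12 arrays were of lungs and heart from mice with other numbers. The source of each KO sample is given as NM1 knock-out mice, no treatment is named, and the strain, sex, age and passage of the cells, and the part of the gene that was removed, were not given in the sources used here. By the series' design text, the fibroblasts came from the mice, so each number was read as 1 animal. Whether any animal gave more than 1 culture is not stated. The p-values rest on a spread between arrays within groups that is pooled over all 16 arrays, lungs and heart included. Of 45037 probe sets that are not controls, 21841 had a mean over the 4 arrays above the median of the whole table (3.79 on the log2 scale, called the filter value here) and were tested. They include 16067 probe sets with exactly 1 gene in the array annotation, for 10093 genes. The series addresses what the loss of NM1 does to gene expression.

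NM1, nuclear myosin 1, is a molecular motor made from the gene Myo1c. The other products of this gene work mainly at membranes, where they tie vesicles and channels to actin filaments. NM1 carries an extra stretch at its amino end, is enriched in the nucleus, and is known for its part in transcription by RNA polymerase I, which makes ribosomal RNA, and for its place in a chromatin remodelling complex with WSTF and SNF2H. Skin fibroblasts make the collagens and proteoglycans of the dermis, keep a positional code of Hox genes, and can turn into contractile myofibroblasts in wounds and in culture.

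The fibroblast label was checked against marker genes. Col1a1, a chain of type I collagen, read 11.33 and 11.61 log2 in KO 1584 and KO 1550 and 11.42 and 10.88 in WT 1571 and WT 1623. Thy1, a surface protein of fibroblasts, read 11.40, 11.28, 10.98 and 11.43 in the same order. Both were high on all 4 arrays, and the genotypes overlapped. Of 10 measured fibroblast markers, 9 passed the filter, and Fap, a membrane protease of activated fibroblasts, did not. Among markers of other cells, some had probe sets below the filter value on all 4 arrays, namely Krt14 and Cdh1 of keratinocytes, Pecam1 and Cdh5 of endothelium, Ptprc of leukocytes, Adipoq of adipocytes and Myod1 of myoblasts. Others passed the filter. Of 8 leukocyte markers 5 did, namely Lyz2, at 5.83 to 6.47, Csf1r, at 5.29 to 5.55, Cd68, Cd52 and Cd3e. Of 8 keratinocyte markers 4 did, namely Krt10, at 5.22 to 5.55, Epcam, Krt5 and Trp63, and Trp63 was highest in WT 1623, at 4.78. Of 6 endothelial markers 1 did, Tek, at 4.16 to 5.79, and of the adipocyte markers Fabp4 did, at 6.78 to 10.13. Of 5 measured pericyte and smooth muscle markers 3 did, namely Cnn1, at 8.15 to 9.32, Notch3, at 5.86 to 6.25, and Myh11. Sox9, at 7.52 to 8.06, and Col2a1 did among 5 measured chondrocyte and osteoblast markers. Of 6 melanocyte markers Pmel and Sox10 did, at no more than 4.32. Sox10 is also on the list of Schwann cells. The list mean lay at 4.0 to 4.15 for leukocytes, 3.56 to 3.74 for keratinocytes and 3.22 to 3.52 for endothelium on the 4 arrays. It was higher for pericytes and smooth muscle, at 5.21 to 5.49, chondrocytes and osteoblasts, at 4.27 to 4.57, and adipocytes, at 4.05 to 5.18. For melanocytes it lay at 3.18 to 3.39, for Schwann cells at 3.41 to 3.68 and for myoblasts at 2.90 to 2.99. The part of such cells in the results was not tested. The Y-linked genes Kdm5d, at 6.64 to 6.93, and Eif2s3y, at 7.62 to 7.90, were present at a like level on all 4 arrays.

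The array medians lay between 3.65 and 3.73 log2. The KO pair was the most alike of the 6 pairs of arrays and the WT pair the least alike. Between KO 1584 and KO 1550, 237 kept probe sets differed by over 1 on the log2 scale, which is 2-fold. Between WT 1571 and WT 1623, 1089 did. The 4 pairs of a KO with a WT array gave 472 to 646, so arrays of different genotype differed at fewer probe sets than the WT arrays differed from each other. A difference of over 2 on the log2 scale was seen at 13 probe sets in the KO pair, at 170 in the WT pair and at 42 to 72 between genotypes.

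**Figure D1:**
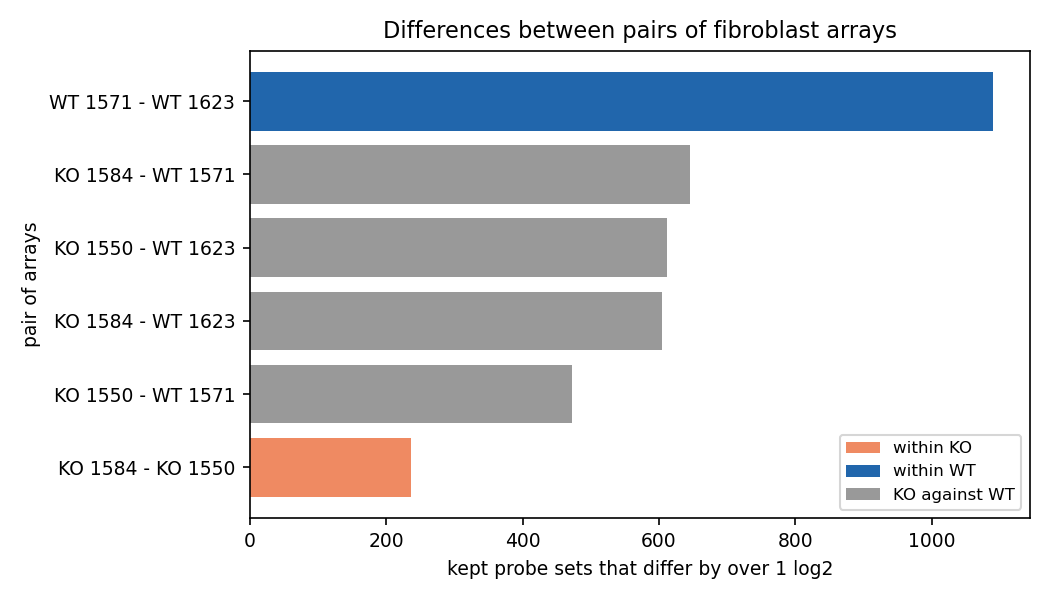
Number of kept probe sets (horizontal axis) that differ by over 1 log2 between each pair of the 4 fibroblast arrays, with the pair within KO, the pair within WT and the 4 pairs of KO against WT in different colours. The WT pair stands at 1089, the KO pair at 237, and the pairs across genotypes lie between them.

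Myo1c itself was lower in both KO arrays at all 4 of its probe sets, but none passed the test on the deposited values. The brightest read 8.73 and 8.65 in KO 1584 and KO 1550 and 9.82 and 10.20 in WT 1571 and WT 1623. Both KO arrays were below both WT arrays, by 1.32 on the log2 scale (SE 0.226, 2.50-fold), with limma adjusted p = 0.0816. This probe set passed after quantile normalization (limma adjusted p = 0.0395) and with a trended robust prior (0.0213). Without WT 1571 its difference was -1.51. At the other 3 probe sets KO minus WT was -1.41, -1.22 and -1.70, with adjusted p = 0.166, 0.356 and 0.291, and here too the groups did not overlap. The mean of the 4 probe sets was 6.26 and 6.24 in KO and 7.52 and 7.81 in WT. Signal remained on both KO arrays at each probe set, with KO means from 4.76 to 8.69. RefSeq lists 3 start sites for the gene, and no source used here says which of its transcripts each probe set reads. With 2 arrays a genotype, an exact permutation test of 1 value cannot go below p = 0.333.

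In the fit of all 16 arrays, few probe sets differed between KO and WT fibroblasts past the threshold. With 2 arrays a genotype, genotype cannot be told apart from differences between animals or cultures. At an adjusted p under 0.05, 12 of 21841 probe sets were called, which is 0.0549%, with 10 higher in KO (0.0458%) and 2 lower (0.00916%). At an unadjusted p under 0.05 there were 727, or 3.33%, and 55.3% of all kept probe sets were higher in KO by any amount. The count changed most when a WT array was left out, which also takes the spread of the WT pair out of the fit. The split between directions changed without either WT array and also without KO 1550. Without WT 1571, 90 probe sets were called, with 56 higher and 34 lower, and without WT 1623, 74 were, with 36 higher and 38 lower. The spread was shared with an array that stands apart, KO heart 1602, which differed from the other KO heart arrays by over 1 log2 at 3736 and 3765 of 22098 kept probe sets, against 443 to 536 for the other heart pairs. Without it, an alternative added after seeing the data, 16 were called, with 12 higher and 4 lower, and all 12 were among them. The 9 called probe sets with a single named gene stand for 8 genes. Those that rose in KO were Chodl, Lrrc15, Moxd1, Rab3c, Slc6a17, Slc1a6 and Dlg2, and the 1 that fell was Il1rn. After quantile normalization of the arrays 11 probe sets were called, with 7 higher and 4 lower, and 9 of the 12 were among them. When the 4 fibroblast arrays were fitted without lungs and heart, 0 were called, with 1266 probe sets (5.80%) at an unadjusted p under 0.05.

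**Figure D2:**
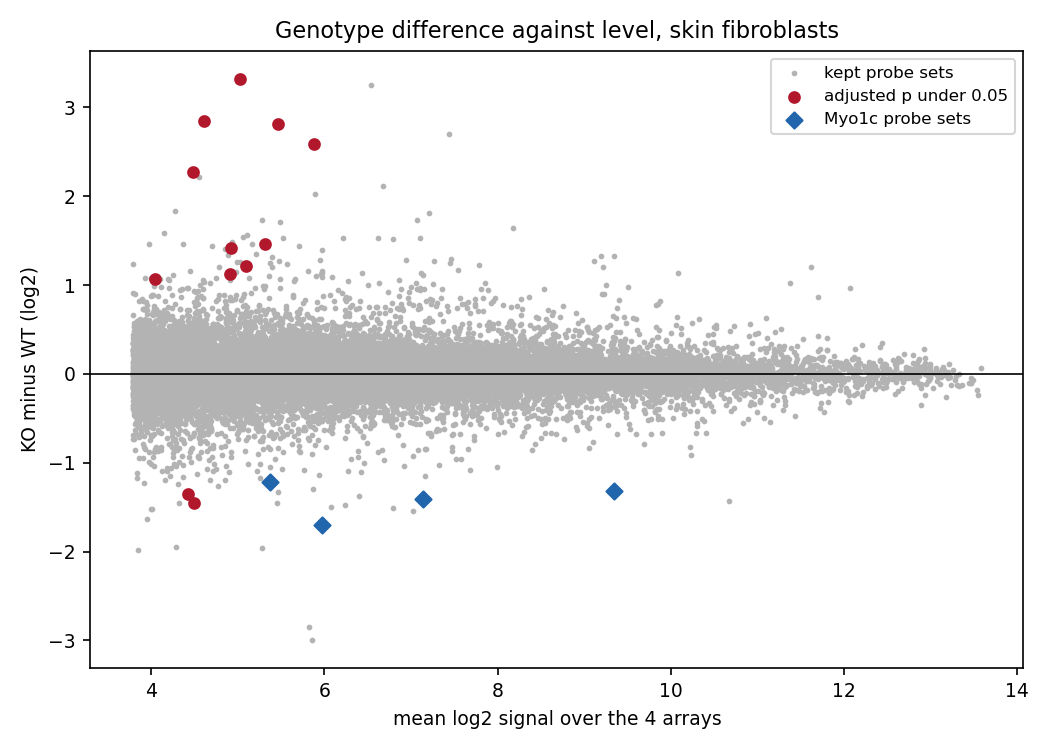
KO minus WT difference (log2, vertical axis) against the mean log2 signal over the 4 fibroblast arrays (horizontal axis), 1 point per kept probe set, with the 12 called probe sets and the 4 Myo1c probe sets marked. The called probe sets lie at mean signals of 4.04 to 5.88, and the Myo1c probe sets lie below the line at 0.

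Chodl, Lrrc15 and Moxd1 had the largest changes among the named genes that passed. Each of the 3 has 1 start site in the RefSeq promoter table, which holds all 8 called genes. The promoters of these 3, which rose together, are shown from 250 bases before to 50 bases after the start in build GRCm38.p6, 5′ to 3′ on the strand of the gene, with each CANNTG (the E-box) in capitals. Chodl lies on the plus strand (chr16:78930698-78930997), Lrrc15 on the minus strand (chr16:30283205-30283504) and Moxd1 on the plus strand (chr10:24223267-24223566).
Chodl: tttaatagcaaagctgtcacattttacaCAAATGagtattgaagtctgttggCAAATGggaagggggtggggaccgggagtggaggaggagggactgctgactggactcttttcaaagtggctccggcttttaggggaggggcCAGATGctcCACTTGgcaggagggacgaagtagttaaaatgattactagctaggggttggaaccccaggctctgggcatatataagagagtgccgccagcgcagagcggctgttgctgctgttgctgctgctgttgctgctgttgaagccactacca
Lrrc15: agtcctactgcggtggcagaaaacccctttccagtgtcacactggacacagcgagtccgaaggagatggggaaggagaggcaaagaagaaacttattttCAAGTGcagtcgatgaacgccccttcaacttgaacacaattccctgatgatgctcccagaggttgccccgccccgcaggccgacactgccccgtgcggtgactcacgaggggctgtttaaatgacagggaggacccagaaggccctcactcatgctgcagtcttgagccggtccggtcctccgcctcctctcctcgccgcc
Moxd1: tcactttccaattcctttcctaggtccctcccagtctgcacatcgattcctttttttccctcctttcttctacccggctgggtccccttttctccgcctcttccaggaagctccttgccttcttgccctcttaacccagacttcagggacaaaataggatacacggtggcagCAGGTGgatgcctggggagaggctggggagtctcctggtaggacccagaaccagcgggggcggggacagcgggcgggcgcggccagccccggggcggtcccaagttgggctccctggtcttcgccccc
On both strands, CANNTG was found 4 times in the Chodl window and 1 time each in those of Lrrc15 and Moxd1, against a match in 72.3% of 32851 promoters of this length. GGGCGG, the GC box, was found 0, 1 and 3 times, against a match in 35.7% of promoters. TGANTCA, the AP-1 letters, was found 1 time, in the Lrrc15 window, against 7.81%, and TATAAA was found in none of the 3, against 13.6%. No base of the 3 windows belonged to more than 1 of these motifs.

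Chodl encodes chondrolectin, a membrane protein with a C-type lectin domain best known from muscle and motor neurons. It read 6.45 and 6.92 in KO 1584 and KO 1550 and 3.24 and 3.49 in WT 1571 and WT 1623. Both WT values were below the filter value, and both KO values were well above it. The rise was 3.32 on the log2 scale (SE 0.303, 9.99-fold), from 3.37 ± 0.18 to 6.69 ± 0.34 (SD, n = 2), with limma adjusted p = 4.59e-04. Where a group lies below the filter value, the fold is that of the deposited signals, which come with no detection call.

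Lrrc15 encodes a membrane protein with leucine-rich repeats that is known as a marker of activated fibroblasts exposed to TGF-beta. Its first probe set read 7.40 and 6.33 in KO and 4.34 and 3.76 in WT, a rise of 2.81 (SE 0.299, 7.02-fold, limma adjusted p = 0.00147). Its second read 7.81 and 6.53 in KO and 4.80 and 4.37 in WT, a rise of 2.59 (adjusted p = 0.0086). The 2 probe sets thus ordered the arrays alike, with KO 1584 highest and WT 1623 lowest.

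Moxd1 encodes a monooxygenase-like protein of the endoplasmic reticulum related to dopamine beta-hydroxylase. It read 5.71 and 5.52 in KO and 2.90 and 3.78 in WT. The KO arrays were close to each other, and both WT arrays were below the filter value. The rise was 2.27 (SE 0.223, 4.84-fold), with limma adjusted p = 7.22e-04.

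The other 4 genes that rose encode transporters and proteins of vesicles and synapses. Slc1a6 encodes the glutamate transporter EAAT4 and read 5.70 and 5.70 in KO against 4.62 and 4.36 in WT, a rise of 1.21 (SE 0.173, limma adjusted p = 0.0207). Slc6a17 encodes a vesicular transporter of neutral amino acids and read 5.24 and 6.01 in KO against 4.30 and 4.12 in WT, a rise of 1.41 (adjusted p = 0.0450). Its other kept probe set did not pass, with 4.22 and 4.30 in KO and 3.79 and 3.83 in WT. At each of these probe sets the genotypes did not overlap. Rab3c, a small GTPase of regulated exocytosis, read 6.07 and 6.02 in KO against 4.29 and 4.87 in WT, a rise of 1.46 (adjusted p = 0.0450). Another 2 kept probe sets of Rab3c had KO above WT by 1.53 and 1.44 without passing (limma adjusted p = 0.275 and 0.9999). In both WT 1571 was the lowest array. The Rab3c probe sets under the filter had differences of -0.66, with both KO arrays below both WT arrays, and 0.03. Dlg2, the synaptic scaffold PSD-93, read 4.77 and 4.39 in KO against 3.45 and 3.56 in WT, a rise of 1.07 (SE 0.151, adjusted p = 0.0199). Of the other Dlg2 probe sets, both under the filter, 1 had a difference of 1.07 and 1 of -0.15.

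Il1rn encodes the interleukin-1 receptor antagonist, a secreted protein that blocks interleukin-1 signalling. It read 3.73 and 3.81 in KO and 5.38 and 5.07 in WT, so that both WT arrays were above both KO arrays. It fell by 1.46 on the log2 scale (SE 0.218, 2.74-fold, limma adjusted p = 0.0271). Its other 2 probe sets, both under the filter, were lower in KO by -0.52 and -0.34. The remaining 3 called probe sets have no gene in the annotation table. The lowest adjusted p in the comparison (4.39e-04) belonged to probe set 1423477_PM_at, with 5.62 and 6.44 in KO and 3.49 and 2.89 in WT. Probe set 1438441_PM_at rose by 1.13 (adjusted p = 0.0220) and 1423342_PM_at fell by 1.35 (adjusted p = 0.0199).

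**Figure D3:**
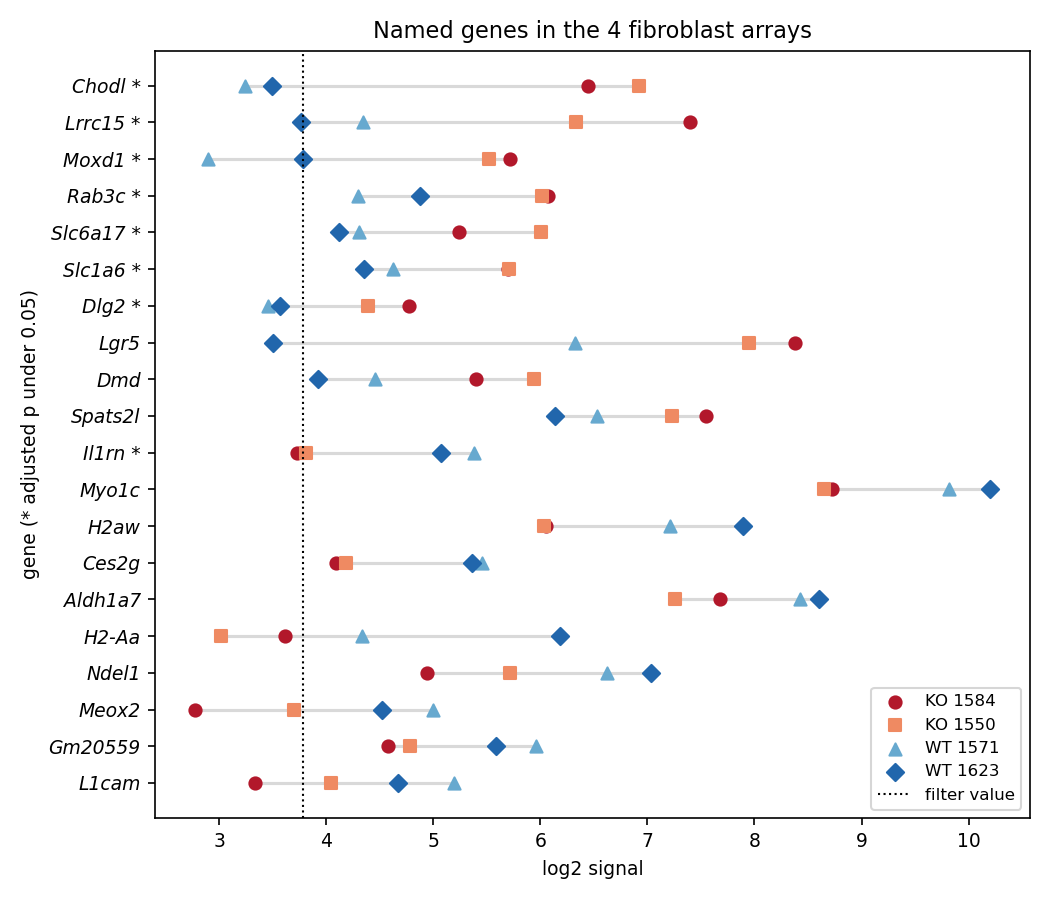
Log2 signal (horizontal axis) of 20 named genes in each of the 4 fibroblast arrays, 1 symbol per array, joined by a grey line that spans the 4 values, with the filter value as a dotted line. Genes with an asterisk passed the test, and for Lgr5 the 2 WT arrays lie far apart, at 6.32 and 3.50.

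The spread behind these calls was pooled over the 3 tissues. A fit without 1 fibroblast array also drops the spread of that pair, so a call in it does not test whether the pair was alike. Among the 12 called probe sets the median SD within fibroblast groups was 0.292, against 0.170 within lungs and heart groups, and 8 of the 12 were more variable in fibroblasts. Over all kept probe sets the order was the other way, 0.154 against 0.265, and 25.5% were more variable in fibroblasts. The mean over lungs and heart was below the filter value in 11 of the 12, against 9.17% of all kept probe sets. In 6 of the 12 (50%) the mean of 1 genotype was itself below the filter value, against 3.13% of all kept probe sets. Leaving out 1 fibroblast array at a time, the probe sets of Chodl, Lrrc15 and Moxd1 and probe set 1423477_PM_at kept their call each time. Il1rn and Rab3c lost it without either KO array or without WT 1571. Slc1a6 lost it without either KO array or without WT 1623, Slc6a17 without KO 1550 or WT 1623, and Dlg2 without KO 1584. Probe sets 1438441_PM_at and 1423342_PM_at lost it without either KO array, and the former also without WT 1623. After quantile normalization Rab3c, Slc6a17 and 1438441_PM_at missed the threshold, with limma adjusted p = 0.149, 0.0579 and 0.0579. Rab3c and Slc6a17 also missed it with no filter (0.0856 for both) and with a trended robust prior (0.0519 and 0.0642). The same held with a filter before the spread was estimated (0.0548 for both). Il1rn missed it with no filter (0.0507).

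Several genes had a difference as large as the called ones and did not pass. Over all kept probe sets, the genotypes did not overlap at 7107, or 32.5%. With 2 arrays a genotype, a random order of the arrays separates the groups with a probability of 0.333. Lack of overlap alone therefore does not mark a genotype difference, here or in the lists below. At 139 of the 7107 (0.636% of all kept) the genotypes also differed by over 1 on the log2 scale. KO was higher at 85 of them (0.389%) and lower at 54 (0.247%). Lgr5, a receptor for R-spondins and a stem cell marker, read 8.38 and 7.95 in KO and 6.32 and 3.50 in WT, a difference of 3.25 (SE 0.570, limma adjusted p = 0.0923). The 2 WT arrays differed from each other by nearly as much as the genotypes did. Without WT 1571 the KO minus WT difference was 4.66 and without WT 1623 it was 1.84. Leaving out either array takes the spread between the WT arrays out of the fit, so no p-value is given for these differences. Dmd, the dystrophin gene, was higher in KO by 1.48 at 1 probe set (5.40 and 5.94 against 4.46 and 3.92) and by 0.73 at another, with adjusted p = 0.0923 and 0.773. Spats2l, which encodes an RNA-associated stress granule protein, was higher by 1.06 (7.54 and 7.23 against 6.53 and 6.14), with adjusted p = 0.0923, and by 1.11 and 0.78 at its other 2 kept probe sets. Without WT 1571 the differences of Dmd and Spats2l were 1.75 and 1.25.

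Some genes lower in KO did not pass. H2aw, a histone gene, read 6.05 and 6.03 in KO and 7.21 and 7.89 in WT (-1.51, limma adjusted p = 0.124). It passed after quantile normalization (adjusted p = 0.0380) and without KO heart 1602 (0.0227), and without WT 1571 the difference was -1.85. Its other 2 kept probe sets were lower by less, at -0.52 and -0.43. Ces2g, a carboxylesterase, read 4.09 and 4.19 in KO and 5.45 and 5.36 in WT (-1.27, adjusted p = 0.166), and the replicates of each genotype were close to each other. Aldh1a7, an aldehyde dehydrogenase, read 7.67 and 7.26 against 8.42 and 8.61 (-1.05, adjusted p = 0.243). In H2-Aa, a chain of MHC class II, WT 1623 alone stood at 6.19, with 4.33 in WT 1571 and 3.61 and 3.02 in KO, and its other 2 probe sets were under the filter. The H2-Aa difference was -1.95 with both WT arrays (limma adjusted p = 0.247) and -2.87 without WT 1571. Ndel1, a regulator of dynein, had 1 probe set at 4.94 and 5.72 in KO and 6.62 and 7.03 in WT (-1.50, adjusted p = 0.283, and 0.0479 without KO heart 1602), and a brighter one with a difference of 0.10. Meox2, a homeobox gene of mesenchyme, read 2.77 and 3.70 against 5.0 and 4.52 (-1.52, adjusted p = 0.322). At its other kept probe set the genotypes overlapped, at 3.54 and 4.25 against 5.56 and 4.07 (-0.92). L1cam, a cell adhesion molecule, read 3.33 and 4.04 against 5.19 and 4.67 (-1.24, adjusted p = 0.528). Gm20559 completed this group at -1.10 (adjusted p = 0.451), and its other kept probe set was lower by less, at -0.51. For none of these genes does a missed threshold show that the genotypes were alike.

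H2aw and Ndel1 lie on the chromosome of Myo1c, 334 and 214 protein-coding genes away from it in RefSeq order. Of the 25 genes on each side of Myo1c, 42 were measured in all and 33 kept. Their median difference was 0.05, with 22 higher and 11 lower in KO, where 57.1% of all 10093 kept genes were higher. Of the neighbours 0 passed, but only 0.0694% of all kept genes did, so this count says little about them. Tlcd2, which encodes a membrane protein, was higher by 1.17 (8.06 and 8.19 against 7.33 and 6.59, limma adjusted p = 0.381). The immediate neighbours were Inpp5k, a phosphoinositide phosphatase, at 0.40 and Crk, an adaptor protein, at 0.04. Xaf1, a gene induced by interferon that lies 85 genes away, had 1 probe set at 8.67 and 8.91 in KO, at 8.63 in WT 1571 and at 3.54 in WT 1623. Thus WT 1571 was at the KO level and WT 1623 alone was low. In lungs and heart the mean of this probe set was 9.52 and 8.44 in KO and 3.11 and 3.40 in WT, so the level of WT 1623 was near that of the WT organs. A second Xaf1 probe set read 6.50 and 6.67 in KO and 7.78 and 7.69 in WT (-1.15, adjusted p = 0.612).

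The gene lists were read against all 10093 kept genes with 1 probe set each, of which 57.1% were higher in KO, with a median difference of 0.03, and 7 (0.0694%) were called. Among these genes the genotypes did not overlap in 20.9% with KO higher and in 12.8% with KO lower. No list member passed the test, so the counts below describe direction alone. Quantile normalization shifted the median of all kept probe sets from 0.02 to 0.01, and their share higher in KO from 55.3% to 51.2%.

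The lists closest to the known work of NM1 had small median differences, while single members differed by more. Of 16 kept genes of RNA polymerase I and its factors, 12 were higher in KO and 4 lower, with a median of 0.09 (0.05 to 0.16 when 1 array was left out), and 7 higher and 1 lower did not overlap between genotypes. Polr1b, a catalytic core subunit, read 4.97 and 4.76 in KO and 4.33 and 4.20 in WT (0.60, limma adjusted p = 0.9999), and Polr1e read 5.67 and 5.56 against 5.26 and 5.44. Taf1b, part of the factor that brings the polymerase to ribosomal DNA, was lower, at 5.32 and 5.70 against 5.71 and 6.03. Of 31 kept ribosome biogenesis genes 28 were higher and 3 lower, with a median of 0.10 (0.02 to 0.21 when 1 array was left out). In this list 8 higher and 1 lower did not overlap. Nat10, which acetylates ribosomal RNA, read 6.18 and 6.05 in KO against 5.73 and 5.62 in WT, and Rrp9, a protein of the U3 particle, 6.38 and 6.28 against 5.82 and 6.18. NM1 partners and members of its remodelling complex were split, 7 higher and 6 lower of 13, and the median of 0.03 became -0.01 when probe sets of a gene were averaged. Among them the acetyltransferase gene Kat2a read 5.97 and 5.76 in KO against 5.46 and 5.59 in WT, and Kat2b 8.61 and 8.63 against 8.78 and 8.82.

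Other myosins gave no common direction. Of 16 kept myosin genes, Myo1c included, 10 were higher and 6 lower, and the median of 0.10 became -0.08 without WT 1571. Mylk, the kinase that activates myosin II, read 8.10 and 8.62 in KO and 6.99 and 7.84 in WT (0.95, limma adjusted p = 0.793). Genes of vesicle traffic that MYO1C serves, such as the exocyst and GLUT4 route, were higher in 10 and lower in 9 of 19, and their median of 0.04 became -0.01 without WT 1571.

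Matrix genes differed by member. Of 21 kept collagen genes 17 were higher in KO and 4 lower, with a median of 0.22 (0.12 to 0.29 when 1 array was left out), and 7 higher and 0 lower did not overlap. Col7a1, which forms the anchoring fibrils under the epidermis, read 6.82 and 6.62 in KO and 5.85 and 5.87 in WT (0.86, limma adjusted p = 0.622). Col23a1, a membrane collagen, read 7.84 and 7.53 against 7.41 and 5.70, with WT 1623 lowest. Col15a1, a collagen of basement membranes, stood at 6.06 in WT 1571 alone and at 3.79, 3.71 and 3.48 in KO 1584, KO 1550 and WT 1623. Matrix glycoproteins and proteoglycans were split, 18 higher and 17 lower, and their median of 0.00 went from -0.13 to 0.10 as single arrays were left out. Mfap4, a microfibril protein, read 8.22 and 7.66 in KO and 6.18 and 6.22 in WT, yet it did not pass (1.74, adjusted p = 0.9999). Decorin (Dcn), a collagen-binding proteoglycan, read 12.62 and 12.49 in KO, 12.53 in WT 1571 and 10.66 in WT 1623. Matrix enzymes and inhibitors were higher in 20 and lower in 10, and their median of 0.17 became -0.09 without WT 1623. Ctsk, a collagen-degrading cathepsin, read 10.07 and 10.42 in KO and 9.62 and 9.30 in WT, while Plod2, which hydroxylates collagen, read 8.58 and 8.0 against 9.09 and 8.82.

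Myofibroblast and actin genes were higher in 20 and lower in 5 of 25, but the median of 0.12 became -0.05 without WT 1571, and 3 of the 25 did not overlap. Itgb5, an integrin that activates TGF-beta, was 1 of these, at 10.34 and 10.40 in KO and 9.67 and 10.05 in WT. TGF-beta and BMP pathway genes were higher in 9 and lower in 17 of 26, and the median of -0.06 became 0.03 without KO 1584. The ligand gene Bmp6 had the largest difference of this list, -0.83, with 4.35 and 3.30 in KO, 5.10 and 4.20 in WT and overlapping groups. The ligand gene Tgfb1 read 4.32 and 4.41 in KO and 3.52 and 4.0 in WT. Of 19 kept genes of Wnt signalling, 10 were higher and 9 lower, and the median of 0.01 became -0.04 after quantile normalization. The ligand gene Wnt4 read 7.83 and 8.33 in KO and 7.12 and 6.55 in WT (1.25, limma adjusted p = 0.476). Nkd2, an inhibitor of the pathway, read 7.42 and 7.46 against 6.65 and 6.39, and the receptor gene Fzd1 4.35 and 4.14 against 5.62 and 4.39.

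**Figure D4:**
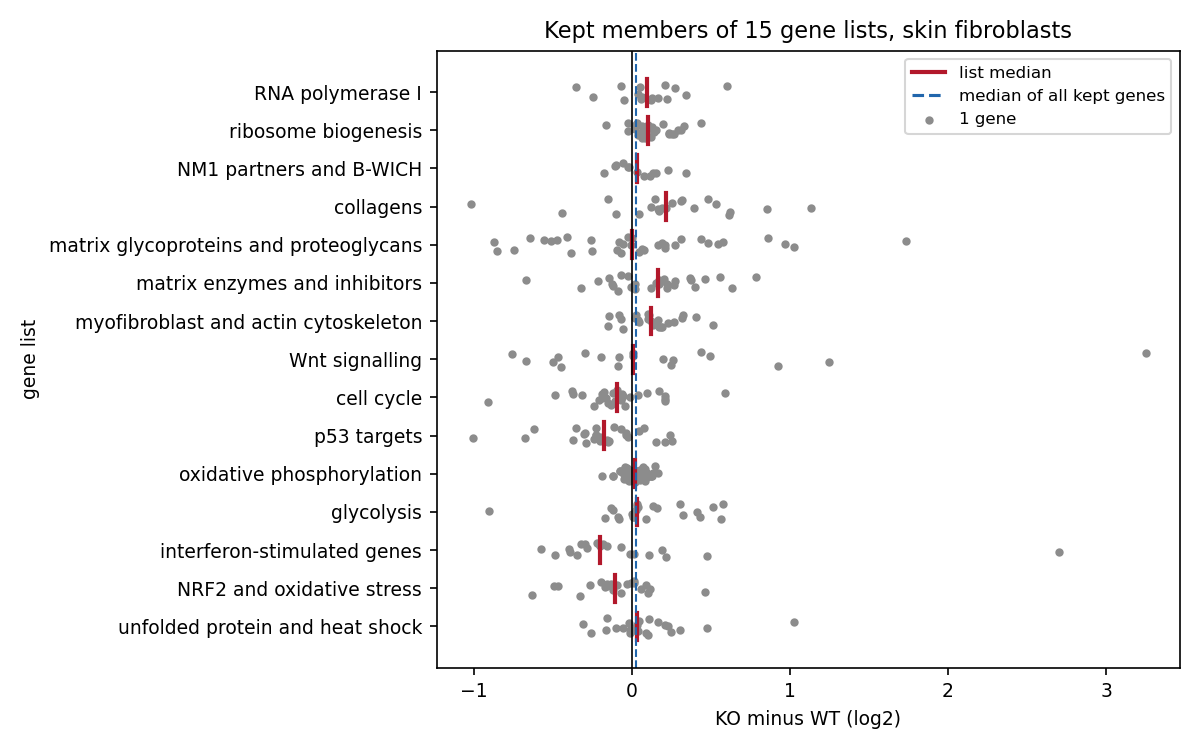
KO minus WT difference (log2, horizontal axis) of the kept members of 15 gene lists in skin fibroblasts, 1 grey point per gene, with the list median as a red bar and the median of all kept genes as a dashed line. The point far to the right in Wnt signalling is Lgr5 and that in the interferon list is Xaf1, and most other points lie within 1 log2 of 0.

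Growth factor genes were split, 15 higher and 16 lower of 31, with a median of -0.01 that became 0.10 without WT 1571. Pdgfd, a ligand of the PDGF receptor, read 7.19 and 6.82 in KO against 6.56 and 5.17 in WT, and Fgf21, a stress-induced hormone, 4.73 and 4.47 against 3.23 and 4.02. Hgf, the ligand of MET, stood out in WT 1571 alone, at 8.75 against 6.65 to 7.43 on the other arrays. Cytokine and chemokine genes were higher in 19 and lower in 12 of 31, and the median of 0.14 became -0.08 without WT 1623. Saa3, an acute phase gene, read 12.00 and 12.43 in KO and 11.67 and 10.36 in WT. The chemokine gene Ccl9 was lower in KO, at 6.93 and 6.69 against 8.66 and 7.02 (-1.03). Interferon-stimulated genes were lower in 15 and higher in 6 of 21, with a median of -0.20 (-0.34 to -0.08 when 1 array was left out). Rsad2, the antiviral viperin, read 4.54 and 4.86 in KO and 5.22 and 5.33 in WT.

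The lists of growth control genes had small median differences, while single members differed by more. Cell cycle genes were lower in 24 and higher in 7 of 31, with a median of -0.09 that became 0.03 without WT 1623. Ccnd1, cyclin D1, read 10.06 and 9.50 in KO and 10.71 and 10.68 in WT (-0.91, limma adjusted p = 0.526), while Cdc25c, a phosphatase of mitotic entry, read 4.35 and 4.39 against 3.79 and 3.77. Targets of p53 were lower in 22 and higher in 6 of 28, with a median of -0.18 (-0.23 to -0.09 when 1 array was left out). Of these, 8 lower and 1 higher did not overlap, with Sesn1, a stress sensor, at 6.62 and 6.58 in KO and 7.07 and 6.87 in WT. Perp, a membrane target of p53, was high in WT 1623 alone, at 8.57 against 5.35 to 6.38. Cdkn1c, an inhibitor of cyclin-dependent kinases, read 7.39 and 6.75 in KO against 8.19 and 7.59 in WT, and Rb1, the retinoblastoma gene, 7.78 and 7.77 against 8.33 and 8.29. They belong to the list of cell cycle inhibitors and senescence genes, which was higher in 6 and lower in 8 of 14, with a median of -0.05 (-0.13 to -0.02 when 1 array was left out). DNA replication and repair genes were split, 15 higher and 14 lower, and their median of 0.00 became -0.03 after quantile normalization.

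Oxidative phosphorylation genes were higher in 29 and lower in 19 of 48, with a median of 0.02 that became -0.04 without WT 1571. Cox6c, a subunit of cytochrome oxidase, had the largest difference of the 48, with 11.34 and 11.38 in KO and 11.51 and 11.58 in WT. Glycolysis genes were higher in 17 and lower in 6 of 23, with a median of 0.04 that became -0.04 without WT 1623. Genes of NRF2 and oxidative stress were lower in 15 and higher in 7 of 22, with a median of -0.10 (-0.23 to -0.03 when 1 array was left out), and 7 lower and 0 higher did not overlap. They include Gsta4, at 7.13 and 6.90 in KO and 7.93 and 7.36 in WT, Gstm1, at 7.91 and 7.67 against 8.43 and 8.09, both glutathione transferases, and Cat, catalase, at 8.99 and 8.86 against 9.10 and 9.72. Unfolded protein and heat shock genes were higher in 15 and lower in 9 of 24, with a median of 0.04, and Trib3, a pseudokinase induced by stress, read 7.01 and 7.27 in KO and 5.95 and 6.28 in WT (1.03, limma adjusted p = 0.397). Genes of PI3K, Akt and mTOR signalling were higher in 14 and lower in 10 of 24, with a median of 0.04 that became -0.02 without KO 1584. Cholesterol and fatty acid synthesis genes were higher in 15 and lower in 5 of 20, with a median of 0.05 that became -0.14 without WT 1571, and Fdps, an enzyme of the mevalonate pathway, was low in WT 1571 alone, at 7.68 against 8.77 to 8.87. Hypoxia genes were higher in 11 and lower in 5 of 16, with a median of 0.08 that became -0.17 without WT 1623. Immediate early genes were lower in 16 and higher in 7 of 23, with a median of -0.11 that became 0.01 without KO 1550. Clock genes were higher in 11 and lower in 5 of 16, with a median of 0.15 (0.03 to 0.17 when 1 array was left out), and Npas2, a partner of BMAL1, read 4.79 and 4.60 in KO and 3.73 and 4.20 in WT.

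Several genes of positional and lineage identity stood apart on 1 WT array. Of 43 measured Hox and positional genes 13 passed the filter, and their median of 0.48 became -0.04 without WT 1623. Hoxb2 read 5.04 and 4.91 in KO and 5.22 in WT 1571 but 3.01 in WT 1623, and Pax3, a gene of the dorsal and cranial embryo, read 5.25, 5.01 and 5.17 but 3.02 in WT 1623. Dlx5 and Lhx9, homeobox genes of limb and head mesenchyme, were highest in WT 1623, at 6.25 and 6.79, and at most 4.65 elsewhere. Twist2, a dermal transcription factor, read 10.34 and 9.65 in KO and 9.25 and 8.80 in WT (0.97, limma adjusted p = 0.9999). Among markers of dermal fibroblast subtypes, Cd34 was highest in WT 1571, at 7.97, with 5.99 in WT 1623 and 5.62 and 5.39 in KO.

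The WT pair differed most of the 6 fibroblast pairs, and the genes named here for it were picked after their values were seen. By over 2 on the log2 scale, 105 probe sets were higher in WT 1571 and 65 in WT 1623, against 9 and 4 in the 2 directions of the KO pair. Lpl, lipoprotein lipase, read 10.12 in WT 1571 and 5.17 in WT 1623, with the KO arrays between them at 7.91 and 6.28. Fabp4, the fatty acid carrier of adipocytes, read 10.13 and 6.78, with 8.08 and 7.68 in KO. Adipoq and Lep, other adipocyte genes, were below the filter value on all 4 arrays, and 3 of 6 adipocyte markers were measured in all. Ebf3 read 7.32 in WT 1571 and 3.23 to 4.19 on the other 3 arrays, and Trim30a, induced by interferon, 7.52 against 3.44 in WT 1623. Higher in WT 1623 were Scx, a transcription factor of tendon cells, at 7.31 against 4.59, Tll1, a procollagen-processing protease, at 7.32 against 4.05, and Ltbp1, which holds latent TGF-beta in the matrix, at 9.69 against 7.08. For each of these genes both KO arrays lay between the WT arrays.

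Lungs and heart served as the comparison for the same genotype. The KO minus WT difference of Chodl was 3.32 in fibroblasts, 0.12 in lungs and 0.29 in heart, and that of Moxd1 was 2.27, 0.01 and -0.04. For Lrrc15 it was 2.81, 0.17 and -0.33. In these organs the signals of the 3 genes were under the filter value on every array, the highest being 3.78. A test of the fibroblast difference against the mean of the lungs and heart differences called 10 probe sets (0.0458%), of which 8 were also called in fibroblasts. Without KO heart 1602 it called 15, with 13 higher and 2 lower, and all 10 were among them. At 7 of the 10, Chodl, Moxd1 and both Lrrc15 probe sets included, every organ signal was below the filter value, so that there the test restates the change in fibroblasts. For Myo1c the differences ran the same way in the 3 tissues, at -1.32, -1.15 and -0.84 for the brightest probe set, and the test gave -0.33 (adjusted p = 0.877).

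**Figure D5:**
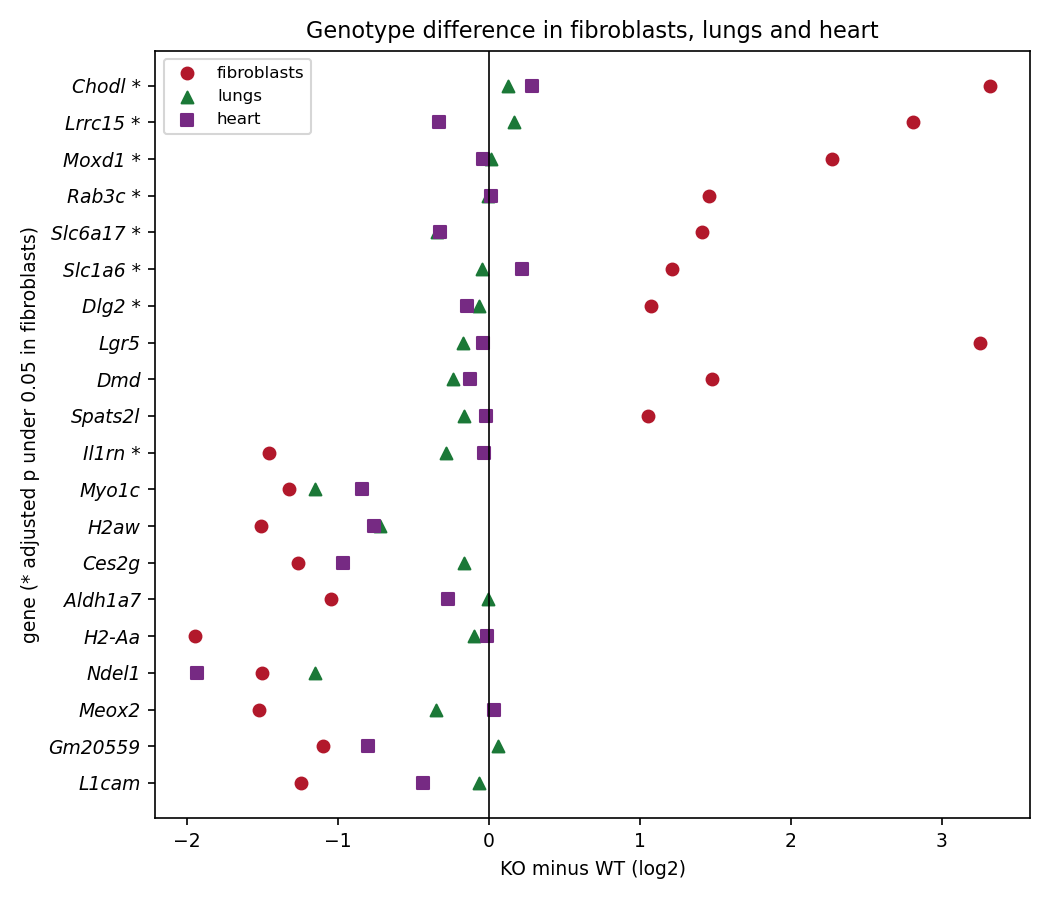
KO minus WT difference (log2, horizontal axis) of 20 named genes in skin fibroblasts (circles), lungs (triangles) and heart (squares), with an asterisk for genes that passed the test in fibroblasts. Chodl, Moxd1 and Lrrc15, whose organ signals are below the filter value, lie close to 0 in both organs. All plotted genes lower in KO fibroblasts except Meox2 and Gm20559 are also negative in both organs, by as little as -0.004 for Aldh1a7 in lungs. Myo1c, H2aw and Ndel1 lie at -0.72 or below in both organs at the probe sets plotted.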

How the data were processed

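RNA was extracted with Trizol and labelled with biotin from 6 ug of total RNA, per the labels' protocols. As deposited, each array gives a single log2 value for every probe set. The submitters' processing notes name Partek 6.4. How background, probe summary and normalization were handled was not given in the sources used here, and the log2 scale was inferred from the range of the values. Without counts or detection calls, it is the number of arrays that limits the precision. They were used as deposited.

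Of 45141 entries, 104 controls were set aside. The array annotation, with symbols updated through gene numbers to the RefSeq table of GRCm38.p6, gives 1 gene for 28898 probe sets, several for 551 and none for 15588. Those are left unnamed.

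limma 3.58.1 in R 4.3.3 was fitted to all 16 arrays with 6 group means, so that the 2 arrays a genotype share an estimate of the spread with lungs and heart (10 residual and 3.53 prior degrees of freedom). Probe sets with a mean over the 4 fibroblast arrays above 3.79 were then kept, and two-sided p-values adjusted over them by the Benjamini-Hochberg method. An adjusted p under 0.05 was called. The scripts were tested on simulated data. Alternatives were the 4 arrays alone, quantile normalization, no filter or a stricter one, a trended robust prior, 1 probe set per gene, the mouse as a block, and each fibroblast array left out. A heart array left out and a filter before the spread estimate were added after seeing the data.

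Named were all Myo1c probe sets, up to 15 called genes per direction, filled to 10 with the smallest adjusted p among differences over 1 log2 whose groups do not overlap, up to 4 kept members of each list, and cell type markers. The members, the 43 lists and the alternatives were chosen with earlier results of these data known. List counts use the probe set with the highest mean for each gene.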

Additional observations from a re-analysis of the deposited data

Results flagged for a closer look

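In 10 probe sets the KO minus WT difference in fibroblasts differed from the mean of the differences in lungs and heart, by limma at an adjusted p under 0.05 (0.0458% of 21841). In all 10 the fibroblast difference was the higher one, whereas without WT 1571 it was higher in 50 of the 72 called and lower in 22, and without WT 1623 higher in 31 of 53 and lower in 22. At 7 of the 10 every lungs and heart array was below the filter value of 3.79, so the organ difference is near 0 there and the test adds little to the change in fibroblasts. These are the probe sets of Chodl, Moxd1, Lrrc15 and Dlg2, 1423477_PM_at and 1438441_PM_at. Slc6a17, Sema5a and 1434914_PM_at had a higher organ signal, up to 4.63, 5.54 and 7.90. It exceeded the organ mean by 3.12 for Chodl, by 2.89 and 2.74 for the 2 Lrrc15 probe sets, by 2.29 for Moxd1, by 1.75 for Slc6a17 and by 1.18 for Dlg2, with adjusted p from 0.00376 to 0.0295. For probe sets 1423477_PM_at and 1438441_PM_at, which have no gene listed, it did so by 2.86 (adjusted p = 0.00234) and 1.34 (adjusted p = 0.0216).

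For the remaining 2 probe sets the fibroblast difference itself had not passed. Sema5a, a semaphorin named here because of this test, read 6.16 and 6.54 in KO fibroblasts and 4.83 and 4.44 in WT, a difference of 1.71 (limma adjusted p = 0.116). In lungs and heart its differences were -0.86 and -0.59, and the gap was 2.44 (adjusted p = 0.0328). Probe set 1434914_PM_at, with no gene listed, was lower in KO lungs and heart by -2.12 and -3.36. In fibroblasts it read 3.31 and 4.20 in KO and 4.21 and 3.58 in WT, with overlapping groups, and the gap was 2.60 (adjusted p = 0.0213).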

How the results depend on the processing

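The count of 12 called probe sets became 0 with the 4 fibroblast arrays alone and 0 with the filter at the upper quartile of the table (6.31 log2), where all 12 fell below the filter and 205 of 11649 tested had an unadjusted p under 0.05. It became 7 with 1 probe set per gene, where 10093 were tested. Leaving out 1 array at a time, it ranged from 12 to 90, with 90 without WT 1571 and 74 without WT 1623, and the lone array of a genotype was taken to vary as much as the remaining groups. Of the 12, 6 were called without KO 1584, 6 without KO 1550, 10 without WT 1571 and 9 without WT 1623. The count of 10 for the difference from lungs and heart ranged from 8 to 72, with 72 without WT 1571 and 53 without WT 1623. The replicate block, with the mouse number as a random effect (consensus correlation 0.0386), gave 12 probe sets, all the same, and 10 for the difference from the organs. Fibroblast mice had no second tissue, so the block ties lungs to heart only, and no call changed. No filter gave 10, a trended robust prior 11, and a filter before the spread was estimated, added after seeing the data, 10. Without KO heart 1602, also added after seeing the data, the counts were 16 and 15. None of the called, named and Myo1c probe sets turned its direction in these settings. The split of the 12, 10 higher and 2 lower, became 56 and 34 without WT 1571 and 36 and 38 without WT 1623. Counted over single probe sets and settings, the side of the threshold was kept in 265 cases, a call was lost in 39 and gained in 12. Of 42 list medians 16 kept their sign in every setting. With 2 arrays a genotype, a difference near the size of the gap between the WT arrays can miss the threshold, as for Lgr5. What size of difference can be detected was not tested.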

Other observations

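The KO pair was the most alike of the 6 fibroblast pairs, and the genes that set KO 1584 and KO 1550 apart were picked after their values were seen. Ccl11, the eotaxin gene, read 7.81 in KO 1584, 3.96 in KO 1550, 5.11 in WT 1571 and 3.54 in WT 1623. Cck, cholecystokinin, read 8.11, 5.70, 4.10 and 5.67 in the same order, so that both KO arrays were above both WT arrays, with a KO minus WT difference of 2.02 that did not pass (limma adjusted p = 0.580). Onecut2, a homeobox gene, stood at 6.60 in KO 1550 and between 3.04 and 3.68 on the other 3 arrays. Casp1, the inflammatory caspase, read 7.42 and 5.30 in KO and 6.76 and 4.48 in WT, so that KO 1584 and WT 1571 were the high arrays. Prl2c2, proliferin, was low in KO 1550, at 8.82, against 11.09 in KO 1584 and 11.51 and 11.26 in WT.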
